A study of Gallus gallus with 12 samples.

Results

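Ganglion cells of the dorsal and of the ventral chick retina were compared over 1752 cells that had been made equal in sex, number and depth, out of 95805 cell barcodes in the whole series and 9159 in its E16 table. A barcode entered when it held 1500 to 5000 unique molecular identifiers (UMIs, each the count of 1 captured transcript) and at least 2 UMIs over RBPMS2, an RNA-binding protein of ganglion cells, and NEFM and NEFL, the medium and light neurofilament chains. Cells with at least 3 UMIs of HINTW, a gene of the W chromosome, were called female and cells with none male, and the rest got no sex. Every cell was then thinned at random to 1500 UMIs, and 272 female and 166 male cells were drawn per library, which gave 438 cells in each of 4 libraries. RBPMS2, NEFM, NEFL and HINTW therefore chose the cells and received no test.

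The libraries were 2 of dorsal and 2 of ventral retina of embryonic day 16 chick, dissociated with papain and enriched for ganglion cells with magnetic beads and an antibody to Thy-1, a surface protein. The remaining libraries of the series held unsorted whole retina of day 12 and of day 18. The labels gave no strain, genotype or treatment that set dorsal apart from ventral. They also did not say whether the libraries came from separate embryos. The main p values therefore measure the spread among the summed female and male cells of these libraries, and not a spread between embryos. The stage follows the titles, stage fields and protocol, although the description fields of the same libraries name day 18.

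Retinal ganglion cells are the only neurons that carry visual signals from the retina to the brain. In chick, as in other vertebrates, their position on the dorsal-ventral axis is laid down early by transcription factors such as TBX5 dorsally and the VAX proteins ventrally. It is read out later by guidance molecules, among them ephrin-B ligands and EphB receptors, that order the axons in the optic tectum. Ganglion cells also come in many types that differ in transcription factors, neuropeptides and adhesion molecules, and bulk sums of cells cannot tell fewer cells of a type from less RNA per cell.

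Before matching, the regions differed in depth and in sex. Ganglion cell barcodes had a median of 1815 and 2111 UMIs in dorsal libraries 1 and 2, against 4345 and 4379 in ventral libraries 1 and 2. Of the cells in the depth window with a sex call, 62.1% and 64.2% were female in the dorsal libraries and 47.9% and 45.9% in the ventral libraries. The draw took every sexed cell of dorsal 1, while dorsal 2, ventral 1 and ventral 2 offered 421, 791 and 683 female and 235, 861 and 806 male cells. After thinning, the drawn cells had medians of 980 and 982 genes dorsally and 987 and 992.5 ventrally. The original depth of the drawn cells still differed, with medians of 2143.5 and 2423 UMIs dorsally and 3750 and 3752.5 ventrally, so thinning equalised the counts but not the cells behind them.

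**Figure D1:**
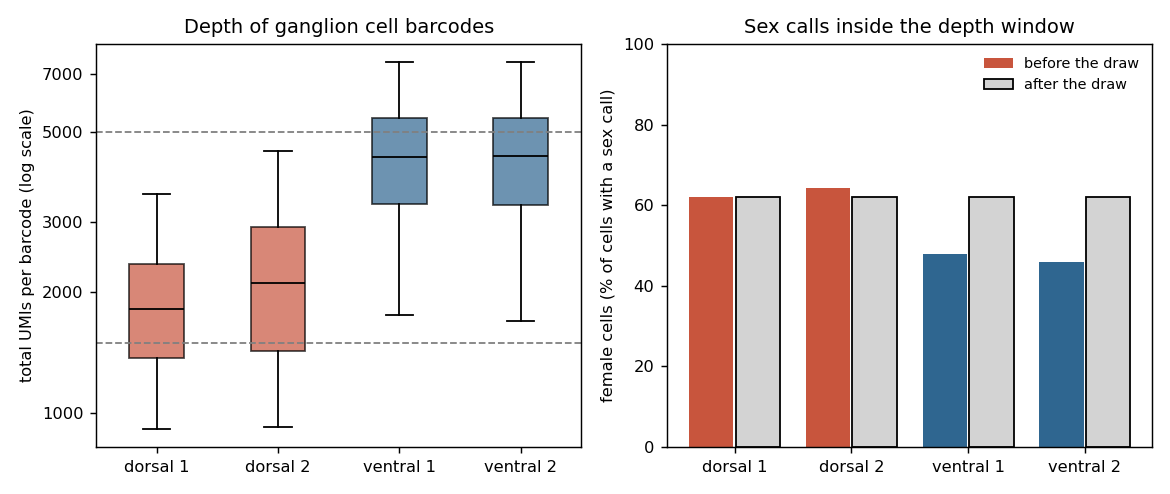
Total UMIs of ganglion cell barcodes per library on a log scale (left; box, quartiles; line, median; whiskers, 5th and 95th percentiles; dashed lines, the window of 1500 and 5000 UMIs) and female cells as a percentage of sexed cells in the window (right; coloured bars before and grey bars after the draw). The dorsal medians of 1815 and 2111 UMIs lie below the ventral medians of 4345 and 4379, and the draw brings all 4 libraries to the same female share.

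At the edges of the rule, 54, 72, 126 and 121 barcodes of dorsal 1, dorsal 2, ventral 1 and ventral 2 in the window had exactly 2 UMIs over RBPMS2, NEFM and NEFL, and 38, 46, 163 and 138 had exactly 1 and stayed out. Likewise 16, 28, 49 and 40 ganglion cell barcodes had exactly 3 HINTW UMIs and were called female, while 25, 23, 68 and 59 had exactly 2 and were left uncalled. The genes of the rule are given here as a description. RBPMS2 stood at 1577 and 1449 CPM (UMIs scaled to a common library total, with totals adjusted by TMM) in dorsal 1 and 2 and at 1113 and 1131 CPM in ventral 1 and 2. NEFM stood at 246 and 235 CPM against 185 and 237 CPM, and NEFL at 826 and 781 CPM against 977 and 970 CPM. HINTW in the cells called female was 3580 and 3419 CPM dorsally and 3095 and 3083 CPM ventrally.

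The sex calls were checked on genes that the rule had not used. The other 51 W chromosome genes held 384.8 CPM of plain totals in the cells called female and 95.4 in those called male. SPIN1W was at 82.7 in the cells called female and at 3.01 in those called male, and ST8SIA3W at 76.0 and 1.00. HINT1Z, the Z chromosome relative of HINTW, was at 476 in female and 742 in male cells, and all 982 Z genes together were 1.42 times higher in male cells, in a species in which males carry a pair of Z chromosomes. Dorsal 1 and 2 shared 28 cell barcodes, 2.93% of the smaller library, and the other pairs of libraries shared 1 to 14. Of 19 shared dorsal pairs with both sexes called, 2 were of opposite sex. In the 2 ventral libraries, whose 14 shared barcodes were 0.43% of the smaller one, it was 2 of 6. The profiles of shared dorsal pairs correlated with a median r of 0.40, against 0.37 for other pairs of the 2 dorsal libraries. Whether dorsal 1 and 2 are fully independent of each other was not tested. The draw held 27 cells with a shared barcode, and the counts of calls without such barcodes are given beside the main ones.

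Of 5617 genes tested over 8 sums, 1 per library and sex, 269 were higher in dorsal and 212 in ventral ganglion cells, which is 8.56% of the genes in either direction (edgeR quasi-likelihood test with sex as a term, Benjamini-Hochberg adjusted p under 0.05). The dorsal calls were 4.79% and the ventral calls 3.77% of the genes, and the median log2 difference over all genes was 0.00. Differences of at least 2-fold were found for 70 of the called genes, 25 higher dorsally and 45 ventrally. The 4 dorsal and 4 ventral sums did not overlap for 355 of the 481 called genes and for 639 of all genes tested (11.4%). The sums of the female and the male cells of a library share its preparation but entered this test as separate observations. In a fit on the 4 library totals, 209 genes were higher dorsally (2.75%) and 143 ventrally (1.88%) of 7607 tested (4.63%), and 328 of the 481 genes were called there too.

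The number of calls depended on the libraries and on the draw. It was 176 and 137 without dorsal 1, 201 and 133 without dorsal 2, 157 and 128 without ventral 1, and 127 and 112 without ventral 2, for dorsal and ventral genes in that order. A second random draw called 255 and 200 genes, of which 287 were among the 481 (59.7% of them). Without the barcodes found in more than 1 library, and with cells thinned and drawn anew, the counts were 257 and 241. Of these calls, 318 were among the 481 (66.1% of them). Drawing equal numbers within 3 bins of original depth raised the counts to 435 and 349 of 5073 genes tested.

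The genes followed here are the 15 with the largest difference in each direction among those called in both fits, with at least 50 CPM in the higher region and no overlap between the 8 sums. The largest dorsal differences lay in secreted signals and a nuclear receptor. UTS2B, which encodes a urotensin-type neuropeptide, was at 91.2 and 128 CPM in dorsal 1 and 2 and at 24.1 and 8.99 CPM in ventral 1 and 2. Its dorsal libraries lay above its ventral ones by 6.43-fold (log2 difference 2.69 ± 0.29 SE, edgeR adjusted p = 3.03e-12). FSTL4, a secreted protein related to follistatin, was at 400 and 363 CPM dorsally and at 76.9 and 65.9 CPM ventrally. It differed by 5.27-fold and had the lowest p of the 15 (log2 2.40 ± 0.15 SE, edgeR adjusted p = 3.76e-24). CCK, the precursor of the peptide cholecystokinin, was at 142 and 163 CPM against 54.3 and 42.0 CPM, a 3.14-fold difference (log2 1.65 ± 0.20 SE). NRG3, a neuregulin that signals through ERBB4 receptors, was at 465 and 476 CPM against 244 and 231 CPM, or 1.97-fold (log2 0.98 ± 0.11 SE).

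A pair of transcriptional regulators and several membrane proteins were also higher dorsally. NR2F2, the orphan nuclear receptor COUP-TFII, was at 80.4 and 87.6 CPM dorsally and 13.6 and 17.98 CPM ventrally (5.19-fold, log2 2.37 ± 0.30 SE, edgeR adjusted p = 9.41e-10). TOX2, an HMG-box protein, was at 244 and 224 CPM against 115 and 103 CPM (log2 1.09 ± 0.15 SE). ADGRL2, the adhesion receptor latrophilin 2 that binds teneurins and FLRT proteins, was at 164 and 197 CPM against 58.8 and 58.4 CPM (3.03-fold, log2 1.60 ± 0.18 SE). IGSF11, an immunoglobulin-type adhesion protein, was at 63.4 and 49.2 CPM against 18.1 and 24.0 CPM (log2 1.38 ± 0.32 SE). GRIK1, a kainate receptor subunit, was at 89.7 and 81.4 CPM against 52.8 and 34.5 CPM (log2 0.96 ± 0.24 SE). The separation of the libraries follows from the choice of genes.

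The other dorsal genes were less alike in function. C14orf132 had the second lowest p, with 346 and 347 CPM dorsally and 142 and 139 CPM ventrally (2.44-fold, log2 1.29 ± 0.13 SE, edgeR adjusted p = 2.01e-13). MPPED1, a metallophosphoesterase of brain, was higher by 2.69-fold and TRIM67, a neuronal ubiquitin ligase, by 1.93-fold. SLC35F3, a member of a solute carrier family, was higher by 2.08-fold, ZRSR2, a component of the minor spliceosome, by 2.02-fold, and KIAA1644 by 2.15-fold. Some of these calls rested on single libraries. Without dorsal 1, IGSF11 (log2 1.20), KIAA1644 (0.91) and TRIM67 (0.79) were no longer called, and without dorsal 2 ZRSR2 (0.79) was not. KIAA1644 (0.97) was also lost without ventral 1, and KIAA1644 (1.25), GRIK1 (0.68) and TRIM67 (0.65) without ventral 2.

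**Figure D2:**
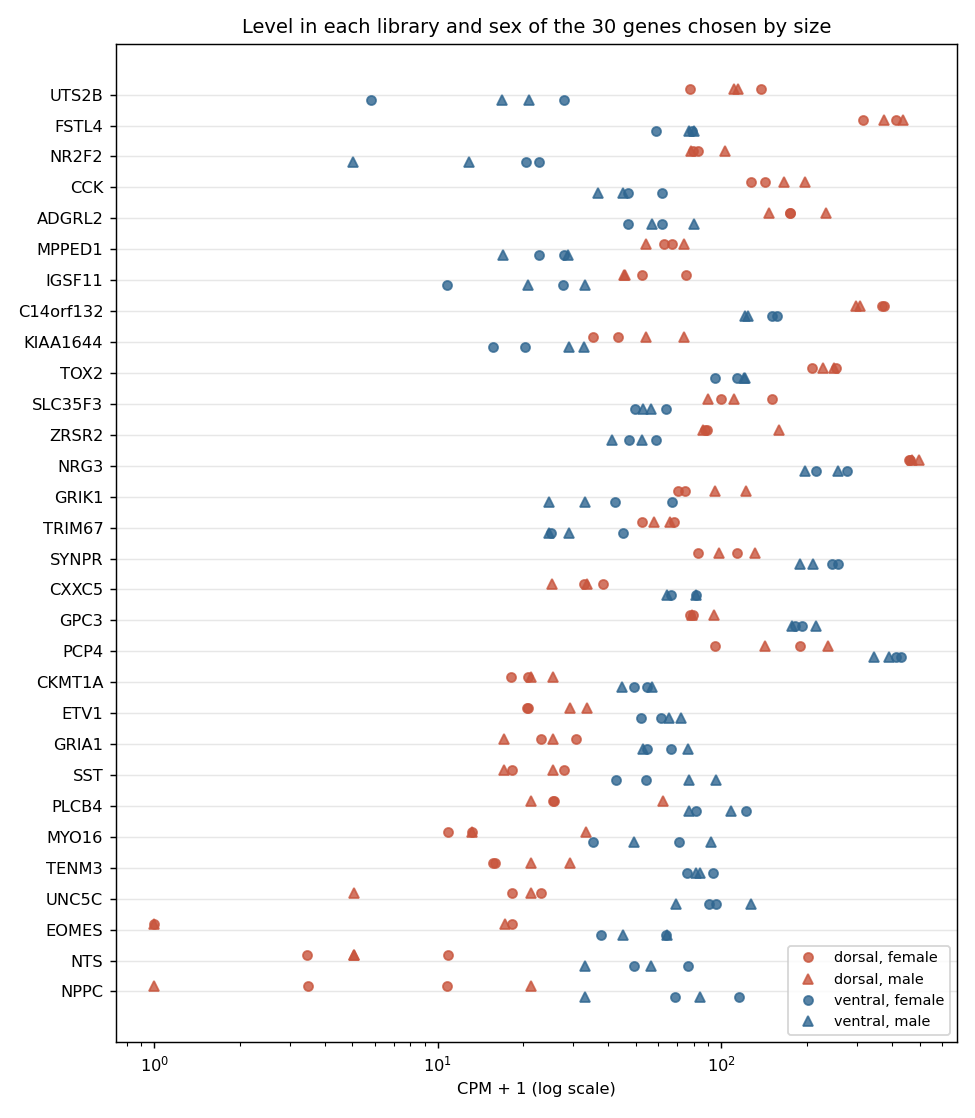
CPM plus 1 on a log scale of the 30 genes chosen by size, in each library and sex (circles, female sums; triangles, male sums; red, dorsal; blue, ventral; 2 libraries per region). The dorsal and ventral points of a gene do not overlap, as the choice required; NPPC, NTS and EOMES lie near the left end in dorsal cells, while FSTL4, NRG3 and PCP4 are among the most abundant.

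The ventral genes with the largest differences were 2 neuropeptide precursors and a T-box factor. NPPC, the precursor of C-type natriuretic peptide, was at 1.55 and 13.8 CPM in dorsal 1 and 2 and at 82.9 and 73.4 CPM in ventral 1 and 2. Its ventral level was 9.78-fold higher (log2 -3.29 ± 0.39 SE, edgeR adjusted p = 2.00e-10), and without dorsal 2 the log2 difference was -5.36. NTS, the precursor of neurotensin, was at 7.73 and 3.07 CPM against 58.8 and 50.9 CPM, a 9.65-fold difference (log2 -3.27 ± 0.45 SE, edgeR adjusted p = 1.74e-08). EOMES, a T-box factor that in mouse is needed by the melanopsin-containing ganglion cells, was at 10.8 and 6.15 CPM against 39.2 and 62.9 CPM (5.86-fold, log2 -2.55 ± 0.44 SE). SST, the precursor of somatostatin, was at 17.01 and 26.1 CPM against 54.3 and 68.9 CPM (2.85-fold, log2 -1.51 ± 0.30 SE). These are low levels: NPPC rested on 10 dorsal and 104 ventral UMIs, and EOMES on 11 and 68. Among cells drawn without barcodes that held markers of other cells, NPPC had 0 and 4 UMIs dorsally and 5 and 5 ventrally.

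Other ventral genes encode surface proteins and a calmodulin regulator. UNC5C, a netrin receptor that mediates repulsion, was at 18.6 and 15.4 CPM dorsally and at 84.4 and 103 CPM ventrally (5.50-fold, log2 -2.46 ± 0.29 SE, edgeR adjusted p = 1.04e-10). TENM3, teneurin 3, which in mouse is needed for the map of retinal axons in visual targets, was at 20.1 and 16.9 CPM against 87.4 and 77.9 CPM (4.43-fold, log2 -2.15 ± 0.28 SE). GPC3, a glypican that modulates growth factor signals at the cell surface, was at 83.5 and 78.4 CPM against 178 and 199 CPM (log2 -1.23 ± 0.16 SE). PCP4, a calmodulin regulator, was the most abundant of the ventral 15, at 113 and 207 CPM against 395 and 402 CPM (2.48-fold, log2 -1.31 ± 0.14 SE). Within the dorsal pair, dorsal 2 had more PCP4 than dorsal 1.

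The remaining ventral genes were of mixed function. PLCB4, a phospholipase C, was 3.14-fold higher ventrally, MYO16, an unconventional myosin, 3.77-fold, and GRIA1, an AMPA receptor subunit, 2.55-fold. ETV1, an ETS-type transcription factor, was 2.51-fold higher and CXXC5, a zinc finger protein, 2.24-fold. CKMT1A, the mitochondrial creatine kinase, was 2.50-fold and SYNPR, the vesicle protein synaptoporin, 2.21-fold higher. MYO16 (log2 -1.35) and GRIA1 (-1.16) were no longer called without ventral 2, nor CKMT1A (-1.21) without ventral 1. Without any matching of sex and depth ETV1 did not differ, with a log2 difference of 0.03 in place of -1.33.

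Of the 30 genes, 14 kept their call and direction in every alternative in which they could be tested. These were UTS2B, FSTL4, NR2F2, CCK, ADGRL2, C14orf132, TOX2 and NRG3 dorsally and NPPC, NTS, UNC5C, TENM3, PCP4 and GPC3 ventrally. A call on the 4 library totals was a condition of the choice, and in DESeq2 only 10 of the 30 could be tested. NTS and UNC5C could be tested in 21 and NPPC in 17 of the 24 alternatives. Without barcodes holding markers of other cells NPPC had 0 and 4 UMIs dorsally and 5 and 5 ventrally, too few to test. In the second random draw 29 of the 30 were tested, and IGSF11, KIAA1644, ZRSR2, ETV1 and CXXC5 were not called.

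The dorsal-ventral differences were tested in each sex. In female cells alone 108 genes were higher dorsally (1.74%) and 71 ventrally (1.15%) of 6199 tested (2.89%), and in male cells alone 33 (0.699%) and 28 (0.593%) of 4724 (1.29%), with fewer cells behind the male sums. Of the chosen genes 23 of 30 were called in female and 14 of 28 in male cells, and 28 could be tested in both. Their equal sign in both sexes follows from the choice, which required that the female and male sums not overlap between regions, and only the sizes are described. UTS2B differed by log2 2.75 ± 0.45 SE in female and 2.60 ± 0.41 SE in male cells, and FSTL4 by 2.43 ± 0.21 and 2.37 ± 0.22. NR2F2 differed by 1.95 ± 0.32 in female and 3.40 ± 0.53 in male cells, and UNC5C by -2.20 ± 0.31 and -2.96 ± 0.53. Among the 30, GRIK1 had the lowest p for a difference between the sexes, at 0.42 ± 0.28 in female and 1.92 ± 0.38 in male cells (interaction tested across all genes, edgeR adjusted p = 0.843).

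Tested over all genes, the interaction of sex and region gave 0 calls of 6049 genes in edgeR (0%), with 345 genes (5.70%) at an unadjusted p under 0.05 and a lowest adjusted p of 0.196. With the same cells unthinned, and with every eligible cell, 1 gene was called, HSPA2, a heat shock protein of the HSP70 family. HSPA2 differed by log2 0.49 in female and -0.23 in male cells in the thinned draw, where neither the interaction nor the overall difference of 0.19 ± 0.10 SE was called (edgeR adjusted p = 0.249). With at least 5 UMIs over the genes of the rule the single call was CSMD1. Both genes were named after their values were seen.

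**Figure D3:**
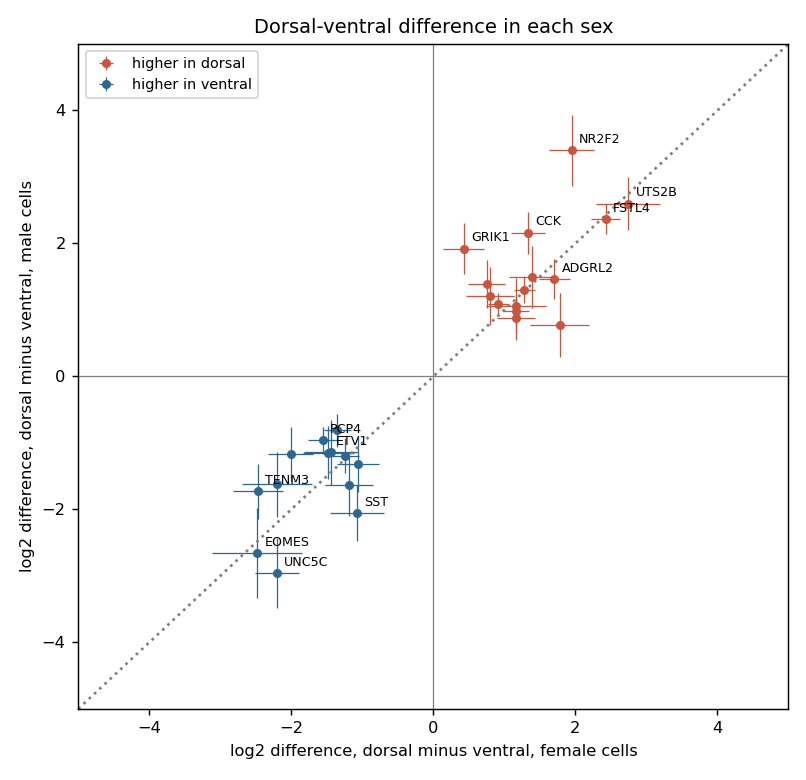
Log2 difference, dorsal minus ventral, in female cells (x axis) and in male cells (y axis) of the 28 chosen genes tested in both sexes (red, higher in dorsal; blue, higher in ventral; bars, standard error; dotted line, equal differences). The equal sign of each point in both sexes was fixed by the choice of genes, and GRIK1 lies farthest above the line among the labelled dorsal genes with 0.42 in female and 1.92 in male cells.

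Genes known to pattern the dorsal retina were mostly too rare to test after thinning. Of 12 listed genes 3 were tested, and all 3 were higher dorsally in this background of 4.79%. This list and those below were chosen with earlier results of these data known, so their shares are described and not read as an excess. NR2F2 is described above. TBX2, a dorsal T-box factor, was at 119 and 160 CPM in dorsal 1 and 2 and at 78.4 and 82.4 CPM in ventral 1 and 2 (log2 0.78 ± 0.18 SE, edgeR adjusted p = 0.00159). EFNB1, an ephrin-B ligand, was at 254 and 318 CPM against 207 and 204 CPM (log2 0.48 ± 0.13 SE, edgeR adjusted p = 0.0107), with some overlap between the 8 sums. Without dorsal 2, TBX2 (log2 0.55) and EFNB1 (0.30) were no longer called, and EFNB1 was not called without ventral 1 (0.49) or without ventral 2 (0.45) either. EFNB1 differed by 0.15 in female cells, where it was not called, and by 0.95 in male cells, where it was. TBX2 was called neither in female (0.86) nor in male cells (0.65) alone. Both calls were lost with at least 5 UMIs over the genes of the rule and with no filter on low counts, and EFNB1 also in DESeq2.

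Of the untested dorsal genes, TBX5 had 14 and 4 UMIs in dorsal 1 and 2 and 0 and 0 in ventral 1 and 2. Its dorsal count was 6 times a floor of 3 UMIs set for the ventral group. This ratio takes the dorsal count as exact and is not a lower limit. TBX3 and the retinoic acid enzyme ALDH1A1 each had 3 and 5 UMIs dorsally and none ventrally, or 2.67 times the same floor. All UMIs of these 3 genes thus came from dorsal libraries. BMP2, a secreted signal, had 13 and 11 UMIs dorsally and 11 and 10 ventrally, and BAMBI, a decoy receptor for such signals, 13 and 10 against 10 and 7. SMOC1 had 6 and 5 against 4 and 8 UMIs, BMP4 had 0 and 1 against 1 and 1, and EFNB2 and GDF6 had none.

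The ventral list held 12 genes, of which 10 were in the table and 3 were tested. EPHB1, a receptor for ephrin-B ligands, was at 41.7 and 33.8 CPM in dorsal 1 and 2 and at 69.4 and 76.4 CPM in ventral 1 and 2 (log2 -0.96 ± 0.25 SE, edgeR adjusted p = 0.00497), against a background of 3.77% of genes called in that direction. The call was lost in 13 of the 23 alternatives that could test EPHB1. Among them were every eligible cell, the depth bins, no matching, and the fits without dorsal 2 (log2 -0.81) or ventral 2 (-0.89). In the second random draw the difference was 0.02, of opposite sign. EPHB2 was at 121 and 144 CPM against 158 and 136 CPM and was not called (log2 -0.17 ± 0.16 SE). In 4 of 24 alternatives it was called as higher ventrally: unthinned, in a window of 1500 to 2500 UMIs, with no matching and with depth matched only. NR2F1, the nuclear receptor COUP-TFI, was at 153 and 144 CPM against 169 and 141 CPM (log2 -0.07 ± 0.15 SE). With no matching, NR2F1 was called in the opposite direction, at 0.44 (edgeR adjusted p = 1.08e-05).

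VAX1, a homeobox factor of the ventral retina, had 1 and 0 UMIs in dorsal 1 and 2 and 9 and 15 in ventral 1 and 2, a ratio of 24.0 with an exact 95% counting interval of 3.91 to 987. CHRDL1, the BMP antagonist also called ventroptin, had 1 and 1 against 4 and 13 UMIs, a ratio of 8.5 (2.02 to 75.9). Both had more UMIs in each ventral than in each dorsal library. EPHB3 had 7 and 11 against 22 and 11 UMIs, ALDH6A1 10 and 14 against 12 and 19, and CYP1B1 1 and 2 against 4 and 3. PAX2 had 0 and 0 against 0 and 1 UMIs, and ALDH1A3 0 and 0 against 1 and 2.

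Genes of the other retinal axis were taken as a contrast. Of 14 nasal-temporal genes 11 were in the table and 7 tested, 2 were higher dorsally and 1 ventrally (42.9%, against 8.56% of all genes), and the median log2 difference was 0.11. HMX1, a homeobox factor of the nasal retina, was at 173 and 128 CPM dorsally and 96.5 and 98.9 CPM ventrally (log2 0.60 ± 0.17 SE). EPHA3, an ephrin-A receptor with a temporal gradient in chick, was at 124 and 115 CPM against 61.8 and 80.9 CPM (log2 0.72 ± 0.19 SE). EPHA6 was at 74.2 and 66.1 CPM against 112 and 121 CPM (log2 -0.74 ± 0.19 SE). All 3 calls were lost when 1 library was left out: HMX1 without dorsal 1 (0.37), ventral 1 (0.57) or ventral 2 (0.61), EPHA3 without dorsal 1 (0.67) or ventral 1 (0.55), and EPHA6 without dorsal 2 (-0.66) or ventral 2 (-0.68). EFNA5, an ephrin-A ligand, was at 10.8 and 23.0 CPM against 42.2 and 33.0 CPM and just missed the threshold (log2 -1.14 ± 0.39 SE, edgeR adjusted p = 0.0505). It was called in 10 of the 19 alternatives that could test it, among them the second random draw and the depth bins. FOXD1, a temporal factor too rare to test, had 0 and 2 UMIs dorsally and 8 and 0 ventrally.

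Among 33 axon guidance genes 20 were tested, 2 of them higher dorsally and 5 ventrally (35.0%, against 8.56% of all genes), with a median log2 difference of -0.14 against 0.00 over all genes. Earlier results were known when the list was chosen, so this share is not read as an excess. Beside UNC5C, the ventral genes were ligands. SLIT1, a repulsive ligand for ROBO receptors, was at 243 and 243 CPM in dorsal 1 and 2 and at 479 and 528 CPM in ventral 1 and 2 (log2 -1.07 ± 0.11 SE, edgeR adjusted p = 5.58e-13), and it kept its call in every alternative. SLIT2 was at 32.5 and 27.7 CPM against 52.8 and 68.9 CPM (log2 -1.02 ± 0.27 SE). The semaphorins SEMA3D, secreted, and SEMA6D, membrane-bound, were lower dorsally too, with 17.01 and 10.8 against 58.8 and 36.0 CPM for SEMA3D (log2 -1.76 ± 0.37 SE). SEMA6D was at 12.4 and 16.9 CPM against 37.7 and 37.5 CPM (log2 -1.34 ± 0.39 SE).

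The receptor ROBO2 was higher dorsally by a small margin, at 1542 and 1466 CPM against 1301 and 1290 CPM (log2 0.21 ± 0.06 SE), and so was DRAXIN, a secreted repellent, at 54.1 and 59.9 against 34.7 and 28.5 CPM (log2 0.83 ± 0.28 SE). Neither was called on the 4 library totals, where the 5 ventral genes were. ROBO2 was lost without dorsal 1 (0.17), ventral 1 (0.21) or ventral 2 (0.19), and DRAXIN without any 1 library (0.68 to 0.97). SLIT2 was lost without dorsal 2 (-0.91) or ventral 2 (-0.83), and SEMA6D without dorsal 1 (-1.14) or ventral 2 (-1.35). Without barcodes that held markers of other cells, neither SLIT2 nor SEMA3D was called. SEMA3D could be tested in only 16 of the 24 alternatives. UNC5D, a relative of UNC5C, was at 69.6 and 55.3 CPM against 57.3 and 77.9 CPM and was not called (log2 -0.14 ± 0.24 SE), nor was the neuropilin NRP1 (log2 -0.09 ± 0.23 SE).

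Among recognition molecules few genes were called. Of 45 listed genes 34 were tested, 2 were higher dorsally and 2 ventrally (11.8% against 8.56% of all genes), and the median log2 difference was -0.03. ADGRL2 and TENM3, a receptor and a member of the family of its ligands, had differences of opposite sign. The other teneurins were not called: TENM1 was at 186 and 184 CPM dorsally against 216 and 192 CPM ventrally, TENM2 at 113 and 111 against 142 and 147 CPM, and TENM4 at 60.3 and 56.8 against 58.8 and 82.4 CPM. ADGRL3, a second latrophilin, was at 387 and 393 against 335 and 366 CPM and was not called. CDH13, a cadherin anchored in the membrane by lipid, was higher dorsally (log2 0.59 ± 0.18 SE) and CDH6, a classical cadherin, ventrally (-0.60 ± 0.17 SE). CDH13 was not called without dorsal 1 (0.43) or ventral 2 (0.48), nor CDH6 without dorsal 2 (-0.53), ventral 1 (-0.63) or ventral 2 (-0.60). In all, CDH13 lost its call in 12 and CDH6 in 13 of the 24 alternatives, both of them also in the second random draw and the depth bins.

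Of 20 neuropeptide and hormone genes 10 were tested, 2 were higher dorsally and 4 ventrally, against 4.79% and 3.77% of all genes. Because earlier results were known when the list was chosen, these shares are not read as an excess. Besides UTS2B, CCK, NPPC, NTS and SST, the list held TAC1, the precursor of substance P, which was at 306 and 255 CPM in dorsal 1 and 2 and 362 and 382 CPM in ventral 1 and 2 (log2 -0.43 ± 0.11 SE). TAC1 was not called without dorsal 2 (-0.29) or ventral 2 (-0.39). NPFF, an RF-amide peptide, was at 29.4 and 3.07 CPM against 49.8 and 28.5 CPM, with dorsal 1 above ventral 2, and was not called (log2 -1.29 ± 0.49 SE). PENK, the enkephalin precursor, was at 68.0 and 38.4 against 42.2 and 74.9 CPM and ADCYAP1, which encodes PACAP, at 167 and 166 against 167 and 153 CPM, neither of them called.

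**Figure D4:**
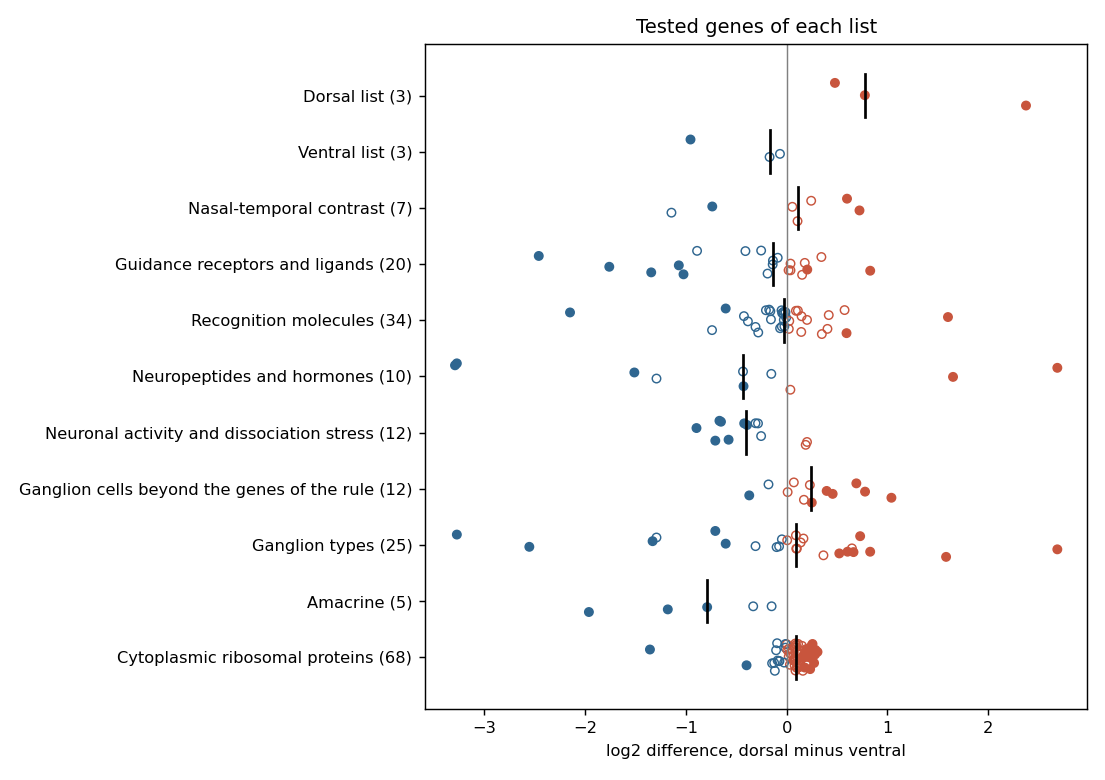
Log2 difference, dorsal minus ventral, of the tested genes of 11 lists, with the number tested in brackets (filled, called at an adjusted p under 0.05; open, not called; red, higher in dorsal; blue, higher in ventral; black bar, median of the list; vertical scatter within a row carries no meaning). The 12 tested activity and stress genes centre on -0.41 and the 12 tested ganglion cell genes on 0.24.

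UTS2B, FSTL4, NTS and EOMES each had a UMI in a minority of the thinned cells. At 1500 UMIs per cell a gene of low level is missed in many cells, so these are not shares of expressing cells. In the thinned cells UTS2B had a UMI in 8.22% and 9.36% of dorsal 1 and 2 and in 2.97% and 0.91% of ventral 1 and 2. FSTL4 was found in 41.6% and 37.7% of dorsal and 10.0% and 7.31% of ventral cells. NTS was found in 0.68% and 0.46% of dorsal and 4.11% and 5.25% of ventral cells, and EOMES in 1.14% and 0.68% against 4.57% and 7.08%. For comparison, 20, 22, 100 and 91 barcodes of the 4 libraries in the same window held at least 2 amacrine UMIs and none of RBPMS2, NEFM and NEFL, and were thinned to the same 1500 UMIs. Of these, 0% of dorsal and 1.57% of ventral barcodes held NTS, and 2.38% and 0.52% held UTS2B. EOMES was found in 0% and 17.8% of them, NPPC in 2.38% and 10.5%, TENM3 in 0% and 9.42% and UNC5C in 14.3% and 11.5%. Ventral EOMES and NPPC were thus found in a larger share of amacrine-type barcodes than of ganglion cells, so their ganglion cell shares are not read as expression. UNC5C and TENM3 were found in 102 and 95 of 876 ventral ganglion cells, shares close to those of the ventral amacrine-type barcodes. Their ganglion cell shares are not read as expression either. FSTL4 was found in 33.3% of the dorsal and 10.5% of the ventral amacrine-type barcodes and NR2F2 in 19.0% and 7.33%, so the shares in ganglion cells cannot be set against a background free of these genes.

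UMIs of some ventral genes were found in the same barcodes. Of 876 ventral cells 51 had an EOMES UMI, and 30 of them (58.8%) also had PCP4, against 23.3% of the cells without EOMES. PLCB4 was found in 18 of the 51 (35.3%) and in 9.0% of the others. NTS and EOMES were found together in 9 cells, which is 21.95% of the 41 cells with NTS. ETV1, found in 48 ventral cells, shared none of its cells with EOMES or NTS. Dorsally, CCK was found in 20 of the 77 cells with UTS2B (26.0%, against 11.0%). PCP4 was found in 27.2% and PLCB4 in 6.81% of the ventral amacrine-type barcodes. These shares describe sparse counts of 1 draw, were not tested and are not read as expression in the same cell.

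The ganglion cell label was checked on genes outside the rule. The rule was applied before thinning, so its minimum of 2 UMIs was a larger share of the shallower dorsal cells than of the deeper ventral cells. The part of this unequal cut in the differences of ganglion cell and amacrine genes was not tested. All 12 listed ganglion cell genes in the table were tested, and their summed level was 9629 and 8910 CPM in dorsal 1 and 2 and 8072 and 8122 CPM in ventral 1 and 2. Of these, 6 were higher dorsally and 1 ventrally, against 4.79% and 3.77% of all genes, with a median log2 difference of 0.24. The 3 POU-domain factors POU4F1, POU4F2 and POU4F3, which drive ganglion cell differentiation, were all called. POU4F2 was at 897 and 820.5 CPM against 528 and 517 CPM (log2 0.69 ± 0.08 SE, edgeR adjusted p = 4.56e-10) and kept its call in every alternative. POU4F1 was at 1169 and 1226 against 905 and 815 CPM (log2 0.46 ± 0.07 SE), and POU4F3 at 158 and 111 against 67.8 and 61.4 CPM (log2 1.04 ± 0.20 SE). With at least 5 UMIs over the genes of the rule POU4F1 differed by 0.13 and was not called, and in the window of 1500 to 2500 UMIs POU4F3 (0.53) was not. In male cells alone neither POU4F1 (0.34) nor POU4F3 (1.25) was called, and POU4F3 (1.07) was also lost with no filter on low counts.

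THY1, the target of the antibody used for enrichment, was at 1200 and 1191 CPM dorsally and 986 and 1014 CPM ventrally (log2 0.25 ± 0.07 SE), and EBF1 at 597 and 661 against 460 and 484 CPM (log2 0.40 ± 0.09 SE). THY1 was not called without ventral 1 (0.22) or ventral 2 (0.26), nor EBF1 without ventral 1 (0.35). ISL2, a LIM factor of ganglion cells, was at 337 CPM in dorsal 1 but at 157 CPM in dorsal 2, near the ventral 149 and 135 CPM. Its log2 difference of 0.78 ± 0.17 SE was called, but it was 0.13 without dorsal 1 and 1.23 without dorsal 2. GAP43, a growth cone protein, was the 1 gene higher ventrally (log2 -0.37 ± 0.08 SE, and -0.30 and not called without ventral 2). SNCG and SLC17A6, the vesicular glutamate transporter, were not called.

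Genes that mark ganglion cell types were called in both directions. Of 32 listed 25 were tested, 7 were higher dorsally and 5 ventrally (48.0%, against 8.56% of all genes), with a median of 0.10. The list was chosen with earlier results of these data known, so its share is described and not read as an excess. The forkhead factors FOXP2, at 360 and 364 CPM dorsally and 219 and 186 CPM ventrally (log2 0.83 ± 0.12 SE), and FOXP1, at 315 and 387 against 234 and 204 CPM (0.66 ± 0.12 SE), were higher dorsally. With at least 5 UMIs over the genes of the rule neither FOXP2 (0.40) nor FOXP1 (0.42) was called. Also higher dorsally were MEIS2, a homeobox factor, at 671 and 710 against 492 and 417 CPM (0.60 ± 0.09 SE), and IRX1, an Iroquois factor, at 55.7 and 41.5 against 18.1 and 13.5 CPM (1.58 ± 0.35 SE). SHISA8 was higher dorsally by 0.73 ± 0.20 SE, and not called without dorsal 2 (0.67) or ventral 2 (0.55). LMO1 resembled ISL2, with 311 CPM in dorsal 1, 177 CPM in dorsal 2 and 155 and 178 CPM in the ventral libraries. Its log2 difference of 0.52 was 0.07 without dorsal 1, 0.88 without dorsal 2 and 0.43, not called, without ventral 1, and LMO1 was not called on the 4 library totals (0.54). SATB1, TBR1, SOX6 and PRR35 were tested and not called.

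The 11 listed amacrine genes summed to 526 and 679 CPM in dorsal 1 and 2 and 888 and 851 CPM in ventral 1 and 2, and 3 of the 5 tested were higher ventrally, against 3.77% of all genes, 2 of them on the 4 library totals too. TFAP2A, an amacrine transcription factor, was at 1.55 CPM in dorsal 1, 47.6 CPM in dorsal 2 and 104 and 89.9 CPM in ventral 1 and 2. TFAP2B was at 17.01, 93.7, 139 and 115 CPM in the same order. In both genes dorsal 1 was far below the other 3 libraries. Without dorsal 1, TFAP2A differed by -1.02 and TFAP2B (-0.42) was not called, whereas without dorsal 2 the differences were -5.67 and -2.88. GAD2, a GABA-synthesising enzyme too rare for the main test, had 0 and 3 UMIs dorsally and 10 and 13 ventrally.

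The comparison was repeated without barcodes that held 2 or more UMIs over markers of amacrine, bipolar, photoreceptor, horizontal, Muller glia and oligodendrocyte cells, which left 257 female and 158 male cells per library. This filter too was applied before thinning, so its 2 UMIs were a smaller share of the deeper ventral cells. The amacrine sum was then 476 and 490 CPM in dorsal 1 and 2 and 554 and 493 CPM in ventral 1 and 2 (on plain library totals). On the same plain totals the full draw had 517.5 and 672.8 CPM dorsally and 896.5 and 864.5 CPM ventrally. Several genes of this sum, among them TFAP2A, TFAP2B and GAD2, were also markers of the filter, so its fall follows in part from the filter. Calls numbered 213 and 162, of which 257 were among the 481. The repeat also thinned and drew the cells anew, and the second random draw, without this filter, kept 287 of the 481. NPPC had 0 and 4 UMIs dorsally and 5 and 5 ventrally in these cells, against 1 and 9 and 55 and 49 in the full draw, and could not be tested. IGSF11, KIAA1644, SLC35F3, ZRSR2, GRIA1 and CXXC5 were tested and not called. Of these, IGSF11, KIAA1644, ZRSR2 and CXXC5 were not called in the second random draw either. The other 23 of the 30 were called in the same direction, among them UTS2B (log2 1.47), FSTL4 (1.85), NR2F2 (2.95), NTS (-4.02), EOMES (-2.39), UNC5C (-2.85) and TENM3 (-1.84). SYNPR, found in 78.6% of dorsal and 66.5% of ventral amacrine-type barcodes, differed by -0.63 in place of -1.15.

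Photoreceptor genes summed to 8.99 to 10.8 CPM, pigment epithelium genes to at most 9.22 CPM and blood and microglia genes to at most 3.07 CPM in any library, with no listed gene of these groups tested. No UMI was found for 7 of the 10 blood and microglia genes in the table. Horizontal cell genes summed to 75.8 and 87.6 CPM dorsally and 112 and 132 CPM ventrally, and oligodendrocyte genes to 148 and 114 against 107 and 151 CPM, and the 2 genes tested in each list missed the threshold. Muller glia genes summed to 68.0 and 104 CPM against 152 and 124 CPM. VIM, an intermediate filament gene, was the 1 tested and was higher ventrally (log2 -0.63 ± 0.20 SE), though not called without dorsal 1 (-0.36), ventral 1 (-0.54) or ventral 2 (-0.74). VIM was also not called on the 4 library totals (-0.62), with no sex term (-0.63) or in DESeq2 (-0.63). Of 6 cell division genes 1 was tested and not called. Bipolar genes summed to 305 and 286 CPM dorsally and 222 and 183 CPM ventrally. All 3 tested had positive log2 differences, from 0.33 to 0.96, and GRIK1, one of the 15 dorsal genes, was the 1 called. The repeat above changed the drawn cells as well as the filter. The part of these other cell types alone in the differences was therefore not tested.

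Of 12 tested genes of neuronal activity and dissociation stress 7 were higher ventrally, against 3.77% of all genes, and 5 of these on the 4 library totals, where JUN and DDIT3 were lost. As this list was chosen with earlier results known, its share is not read as an excess. ATF3, HSPA2, HSPA5, HSP90AA1 and ASNS were not called, the log2 differences ran from -0.89 to 0.20 with a median of -0.41, and the list summed to 4159 and 3992 CPM in dorsal 1 and 2 and 5087 and 5215 CPM in ventral 1 and 2. FOS was at 430 and 459 CPM against 660 and 739 CPM (log2 -0.67 ± 0.09 SE, edgeR adjusted p = 8.68e-09), JUND at 448 and 482 against 672 and 767 CPM (-0.65 ± 0.09 SE) and HSPA8, a constitutive heat shock protein, at 898 and 804 against 1241 and 1277 CPM (-0.58 ± 0.07 SE). FOS kept its call in every alternative. JUN was not called without dorsal 2 (-0.13) or ventral 2 (-0.33) and stood at -0.78 without dorsal 1. NR4A3 was lost without dorsal 1 (-0.79) or ventral 2 (-0.49), DDIT3 without dorsal 1 (-0.17) or ventral 1 (-0.30), and PHGDH, an enzyme of serine synthesis, without any 1 library (-0.79 to -0.62). This list moved with region in the same libraries as the ganglion cell genes above, and its part in other differences was not tested.

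Ribosomal protein genes showed how the choice of cells bears on a small difference. Of 69 cytoplasmic ribosomal protein genes 68 were tested, 15 were higher dorsally and 2 ventrally, against 4.79% and 3.77% of all genes, and the median log2 difference was 0.10. On the 4 library totals 11 of the dorsal calls held, and RPL12, RPL24, RPS27 and RPS3 were lost. The dorsal genes differed by 0.17 to 0.31, such as RPL32 at 3626 and 3959 CPM dorsally against 3127 and 3016 CPM ventrally (log2 0.29 ± 0.05 SE). RPL14 (-1.36 ± 0.36 SE), at 10.8 and 23.0 against 40.7 and 46.5 CPM, and RPS24 (-0.40 ± 0.07 SE), at 955 and 831 against 1220 and 1116 CPM, were higher ventrally. RPL14 was not called without dorsal 1 (-0.92) or ventral 2 (-1.27). Near-identical copies of such genes can share or lose reads in counting, so single members are uncertain.

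Their summed share was 139010 and 143030 CPM of all UMIs in dorsal 1 and 2 and 135150 and 131470 CPM in ventral 1 and 2. With no matching it was 136850 and 140740 CPM dorsally and 143330 and 140290 CPM ventrally, so the regions overlapped. Whether the sum set the regions apart thus depended on the choice of cells. When equal numbers were drawn within bins of original depth, it was 138840 and 142310 against 115480 and 118900 CPM. In a narrow window of 1500 to 2500 UMIs it was 139130 and 145240 against 109320 and 108340 CPM. The median original depth of the ventral libraries was 4345 and 4379 UMIs with no matching, 3750 and 3752.5 in the draw, 2573 and 2541 in the bins and 2063 and 2025 in the narrow window, so ventral sums were lower where the ventral cells were shallower. Without barcodes that held markers of other cells the sum was 139240 and 143180 CPM dorsally and 139780 and 132680 CPM ventrally, so the regions overlapped. The ventral median depths there were 3787 and 3697 UMIs. The dorsal sum stayed between 136850 and 145240 CPM. The part of depth in this difference was not tested beyond these draws. With depth matched in bins, RPL32 differed by 0.53, FOXP2 by 1.36 and SLIT1 by -1.41, and 15.5% of the 5073 genes tested were called.

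**Figure D5:**
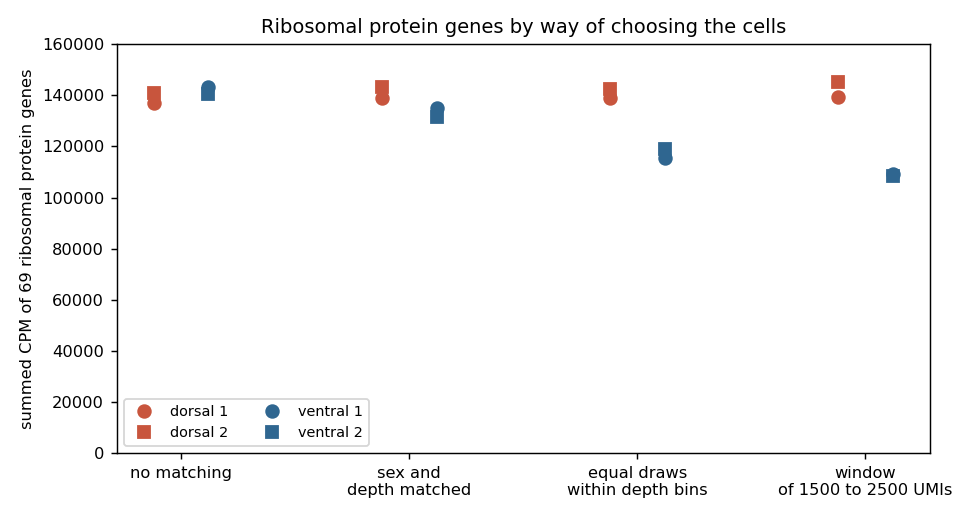
Summed CPM of 69 cytoplasmic ribosomal protein genes in each library (red, dorsal; blue, ventral; circles, replicate 1; squares, replicate 2) for 4 ways of choosing the cells. Dorsal and ventral libraries overlap with no matching and are farthest apart in the narrow window, with 109320 and 108340 CPM in the ventral libraries.

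Sex chromosome genes were followed over the steps of the matching. With no matching, 6 of 16 tested W genes were called, all higher dorsally, and of 517 Z genes 30 were higher dorsally and 56 ventrally, with a median log2 difference of -0.11. With depth matched but sexes as they came, 2 of 12 W genes were called and 15 and 30 of 433 Z genes. With sex matched too, the 4 W genes tested missed the threshold, SPIN1W among them (log2 0.23 ± 0.25 SE), and 10 and 6 of 227 Z genes were called (7.05%, against 8.57% of genes of other chromosomes), with a median of 0.02. The last step also took away the cells without a sex call and reduced 502, 759, 2022 and 1804 cells to 438 per library, so fewer genes could be tested and the part of sex alone was not tested. In all, 926 genes were higher dorsally (7.64%) and 855 ventrally (7.05%) of 12124 tested with no matching (14.7%), and 562 (5.68%) and 457 (4.62%) of 9890 with depth matched only (10.3%).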

How the data were processed

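The authors deposited UMI counts of each gene in each barcode, whole numbers and not normalized, from 10x Chromium 3' version 2 libraries per the labels' protocols. Cell Ranger 2.1.0 and genome build GRCg6a stand in the submitters' processing notes. The annotation and the rule that called cells are not given in the sources used here. Library totals were 1737033, 2886101, 15237958 and 13829514 UMIs, and each library entered the test with 657000. Thinning was without replacement (seed 1). Sums were tested with edgeR 4.0.16 (quasi-likelihood, filterByExpr, TMM scaling, Benjamini-Hochberg over all genes tested; R 4.3.3, limma 3.58.1), and cells were handled in Python 3.11.15 with pandas 2.3.3, numpy 2.4.6 and scipy 1.17.1. Positive log2 differences are higher in dorsal, and their standard error is the log2 difference divided by the root of F. Genes were named by size as the report states, in addition to the lists. The cells, lists and tests were chosen with earlier results of these data known. Chromosomes were read by symbol from a RefSeq table of build GRCg7b, which gave one for 78.6% of genes. No doublet caller was run, and no barcode was removed as a doublet. On simulated counts of 5581 genes the 8-sum test recovered 92% of changes of log2 1 and 100% of log2 2, and 4% of its calls were false. The simulation drew every sum independently with a single dispersion and changed only genes above 50 CPM. It held no spread shared by the female and male sums of a library, so it cannot give the false rate in the real data. Alternatives included DESeq2 1.42.0. Intervals cover counting error only, and ratios to a floor of 3 UMIs take the higher count as exact. Some genes of the lists are not reported here, although they count in the list totals.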

Additional observations from a re-analysis of the deposited data

How the results depend on the processing

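The counts of genes higher dorsally and ventrally (269 and 212) and of the dorsal and ventral lists together (4) stayed within 1.5 times under the 4 library totals, no sex term, limma voom, both other scalings, the second draw, the narrow window and removal of barcodes with other markers or, chosen after seeing the data, of shared barcodes. These counts came from unlike numbers of genes tested. The share called was 8.56% of 5617 genes in the main test and 4.63% of 7607 on the 4 library totals. In the narrow window it was 17.9% of 3346, where 286 of the 481 calls were kept. Without TMM the counts were 235 and 242, with the median shifted by -0.02. They moved to 108 and 71 (listed 1) in female and 33 and 28 (listed 2) in male cells, 119 and 70 (1) in DESeq2, which gave no adjusted p for 3267 genes, 114 and 60 (1) with no filter, 409 and 319 unthinned, 582 and 416 with every eligible cell, 435 and 349 in depth bins, 127 and 115 (1) with at least 5 UMIs over the genes of the rule, 926 and 855 (10) with no matching, and 562 and 457 (8) with depth matched only. Leaving out 1 library gave 127 to 201 and 112 to 137 (1 to 4 listed). The interaction went from 0 to 1 call unthinned, with every eligible cell and with at least 5 UMIs. The replicate block beside sex gave 296 and 227 and kept all 481 calls. Whether same-numbered libraries form pairs was not settled. Their deviations correlated with r = 0.03 over 7611 genes, but 2 pairs are too few to decide this.

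Over the 30 genes 618 of 682 values kept call and direction, 63 lost the call and 1 reversed. Over all 91 followed genes 26 of 2102 reversed. With no matching these were ETV1 (0.030), NR2F1 (0.44), SOHO-1 (-0.31), RPL12 (-0.024), RPL24 (-0.022), RPS13 (-0.037) and RPS3A (-0.0089). With depth matched only they were NR2F1 (0.012) and SOHO-1 (-0.18), in male cells NR2F1 (0.24) and TFAP2B (0.11), in female cells EPHB2 (0.041), unthinned NR2F1 (0.079) and in the second draw EPHB1 (0.024). In the narrow window they were EPHA4 (-0.17) and EPHA5 (-0.12), with at least 5 UMIs NR2F1 (0.39), SOHO-1 (-0.34) and EPHA5 (-0.23), without other markers NR2F1 (0.16) and SOHO-1 (-0.13) and without shared barcodes SOHO-1 (-0.025). With 1 library left out they were SOHO-1 (-0.10 without dorsal 1, up to 0.29), EPHA5 (-0.02 without dorsal 1 and -0.10 without ventral 1, up to 0.21) and NR2F1 (0.069 without ventral 1, down to -0.20). For these the cause was not tested. At 657000 UMIs per library, genes such as TBX5 and VAX1 were too rare to test.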
